A study of Mus musculus with 8 samples.

Results

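The sphingomyelin synthases and sphingomyelinases are the enzymes that make and break down sphingomyelin. A list of 10 mouse genes was followed: the synthase genes Sgms1, Sgms2 and Samd8, and the hydrolase genes Smpd1, Smpd2, Smpd3, Smpd4, Smpdl3a, Smpdl3b and Enpp7. They were chosen by name, with earlier results of these data known. Of the 10, 9 had an array row that carried their symbol, 1 row each, and these 9 all passed a filter on low signal, among 13003 genes tested of 19505 with a named row. Enpp7, which encodes the alkaline sphingomyelinase of the intestinal brush border, had no such row in the annotation used, so it has no value.

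Colon epithelial cells were taken from mice of the C57BL/6J strain, and their RNA was hybridised to 8 Affymetrix arrays, 1 per sample, in 4 groups of 2. The groups were untreated wild-type (WT) mice, WT mice given dextran sulfate sodium (DSS), untreated SMS2 knockout (KO) mice, and KO mice given DSS. DSS, a polymer that injures the colon lining, was given at 3.5% in drinking water for 2 days. SMS2 is the protein made from Sgms2. The sources used here do not give the age and sex of the mice, which part of the gene was deleted and in which tissues, or how many mice made up a replicate. P-values therefore measure the spread between these samples, which the labels call biological replicates.

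As background, sphingomyelin synthases move a phosphocholine head group from phosphatidylcholine onto ceramide, which yields sphingomyelin and diacylglycerol. SMS1, from Sgms1, works in the Golgi, and SMS2 works in the Golgi and at the plasma membrane. SMSr, from Samd8, lies in the endoplasmic reticulum and makes the related lipid ceramide phosphoethanolamine. Sphingomyelinases run the other way and release ceramide, and they are classed by the pH at which they work: acid (Smpd1, in lysosomes), neutral (Smpd2, Smpd3 and Smpd4, in cell membranes) and alkaline (Enpp7, in the gut lumen). Smpdl3a and Smpdl3b encode relatives of the acid enzyme.

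Values are log2 signals as deposited, so a difference of 1 is a doubling of signal. Differences are given ± their standard error from a limma model of the 4 group means, and a gene was called at an adjusted p under 0.05 over all 13003 genes. Background on an array was the 75th percentile of its negative-control rows, between 6.00 and 6.24. Signals of different genes come from different probes and are not ranked against each other.

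The arrays differed in more than genotype and treatment. All 14 colon epithelium marker genes, such as Car1, Muc2 and Lgals4, lay above background on each array, with list means between 15.98 and 16.29. The mean of 3 Y-linked genes (Eif2s3y, Uty and Kdm5d) was between 3.75 and 3.90 on the 4 untreated arrays and between 8.99 and 9.95 on the 4 DSS arrays, and all 3 genes were called higher with DSS in both genotypes. Every DSS difference given here, those of the enzyme genes included, may therefore be a difference between the sexes: treatment and sex cannot be told apart on these arrays. The mean of 9 exocrine pancreas genes, led by Cela1, Amy2a5 and Cpa1, was 11.77 on WT DSS replicate 1 and 7.32 on KO DSS replicate 1. It was 5.63 to 6.04 on the other arrays. Amy2a5 and Cpa1 were highest on these 2 arrays, at 15.17 and 12.55 in WT and 9.61 and 7.21 in KO. Cela1 did not follow this: it ran from 12.13 to 15.84 over all arrays. In KO with DSS it was 14.32 on replicate 1 and 15.39 on replicate 2. KO DSS replicates differed most over all genes, with a median gap of 0.33, and most over the 9 enzyme genes, with a median gap of 0.59 against 0.12 in untreated KO.

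Sgms2, the targeted gene, was the enzyme gene that separated the genotypes. Its signals (row TC0300002959.mm.2) were 10.79 and 10.76 in WT mice without DSS, 11.27 and 10.90 in WT with DSS, 7.30 and 7.33 in untreated KO, and 7.35 and 6.47 in KO with DSS. Each KO array was below each WT array, and the KO signal still lay above background, by 1.14 and 1.17 without DSS and by 1.13 and 0.43 with DSS. The difference between KO and WT was -3.46 ± 0.29 without DSS (adjusted p = 0.00137, smallest p of all genes tested) and -4.18 ± 0.29 with DSS (adjusted p = 3.08e-05). In untreated mice 1 of the 9 enzyme genes was called between genotypes, where 0.392% of all genes were called, and with DSS 1 of 9, where 0.354% were. Where the probes lie relative to the deletion is unknown, so the remaining signal says nothing about the function of any transcript left.

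**Figure D1:**
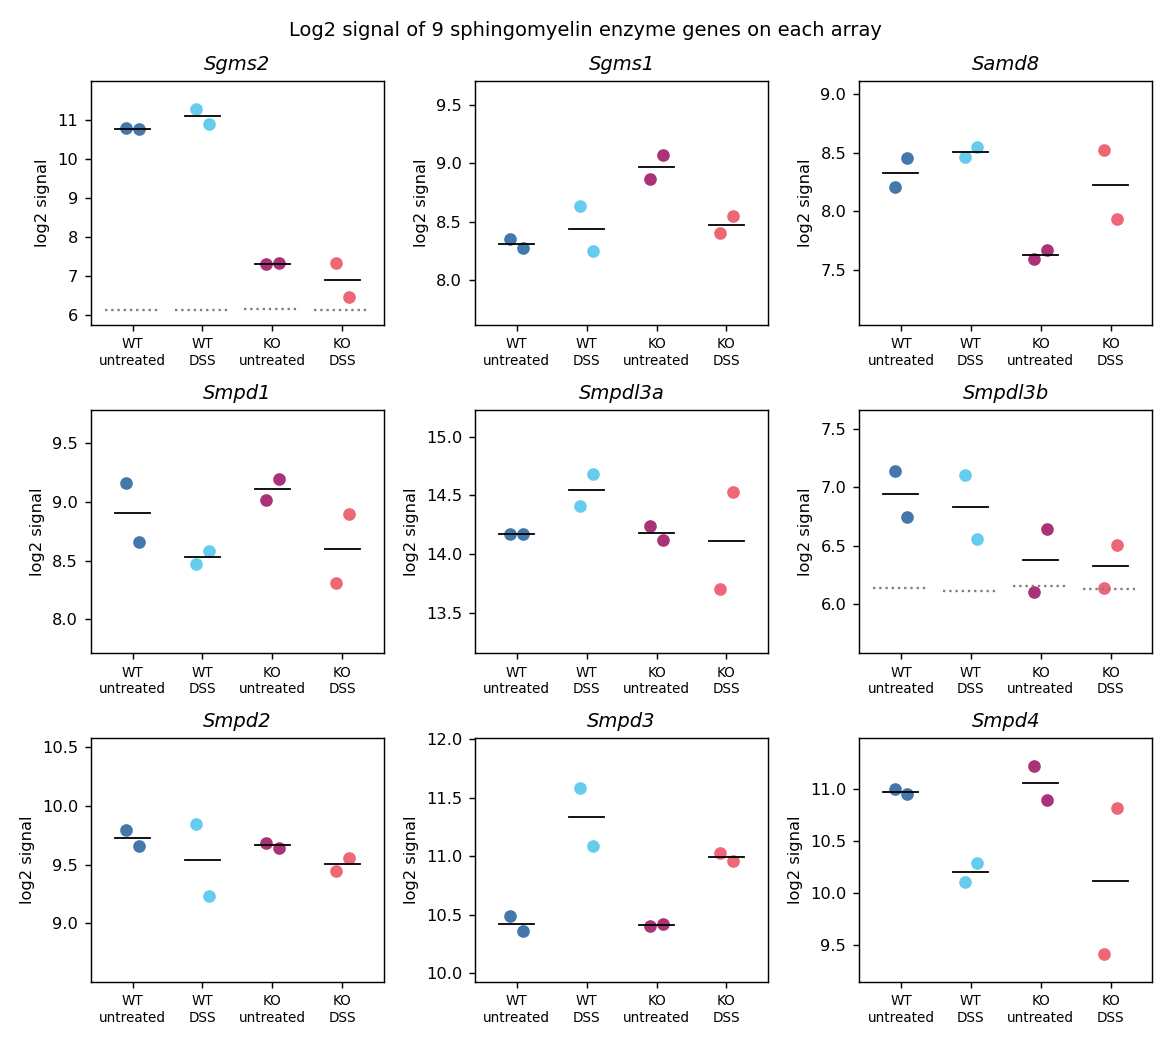
Log2 signal (vertical axis) of 9 enzyme genes on each array, by group (horizontal axis); points are arrays, replicate 1 on the left, black lines are the means of 2, and dotted lines in the Sgms2 and Smpdl3b panels are the mean background of each group. Sgms2 sits between 6.47 and 7.35 in KO and between 10.76 and 11.27 in WT, and the 4 DSS arrays of Smpd3 sit above its 4 untreated arrays.

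DSS left Sgms2 without a call in either genotype. In WT it was higher on both DSS arrays than on both untreated arrays, by 0.31 ± 0.29 (adjusted p = 0.708). In KO the DSS and untreated arrays overlapped, with a difference of -0.41 ± 0.29 (adjusted p = 0.759), set by the low value of KO DSS replicate 2. Without that replicate the difference was 0.03. The DSS change of the KO minus that of WT was -0.72 ± 0.41 (adjusted p = 0.963), with a 95% interval from -1.63 to 0.19.

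Sgms1, the Golgi synthase gene that the KO mice keep, had its highest signals in untreated KO. The values were 8.35 and 8.27 in untreated WT, 8.63 and 8.25 in DSS-treated WT, 8.86 and 9.07 in untreated KO, and 8.40 and 8.55 in KO with DSS. Both untreated KO arrays lay above the other 6. The difference from WT was 0.66 ± 0.23 without DSS, a 1.58-fold higher signal, and its 95% interval ran from 0.14 to 1.17. With an unadjusted p of 0.0167 in limma it ranked 451 of 13003 genes and was not called (adjusted p = 0.481). With DSS the difference was 0.03 ± 0.23, with an interval from -0.48 to 0.55, so a doubling of Sgms1 in KO with DSS lay outside it. Within KO, both DSS arrays were below both untreated arrays, by -0.49 ± 0.23 (adjusted p = 0.559). The order of group means was untreated KO, KO with DSS, WT with DSS, untreated WT, and the last 3 were within 0.16 of each other, less than the 0.38 between the replicates of WT with DSS.

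Samd8 had its lowest signals in untreated KO, the group in which Sgms1 was highest. Its signals were 8.20 and 8.46 in untreated WT, 8.46 and 8.55 in DSS-treated WT, 7.60 and 7.67 in untreated KO, and 8.53 and 7.93 in KO with DSS. Both untreated KO arrays were below the other 6, which ran from 7.93 to 8.55. The difference between KO and WT was -0.70 ± 0.25 without DSS (unadjusted p = 0.0183, adjusted p = 0.498) and -0.28 ± 0.25 with DSS (adjusted p = 0.741). Within KO the DSS arrays were higher by 0.60 ± 0.25 (adjusted p = 0.476), a value that was 0.30 without KO DSS replicate 1 and 0.89 without KO DSS replicate 2. Neither Samd8 nor Sgms1 had an interaction past the threshold: the difference between the DSS changes was 0.42 ± 0.36 for Samd8 (adjusted p = 0.992) and -0.62 ± 0.33 for Sgms1 (adjusted p = 0.943).

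Smooth muscle markers differed between the genotypes beside these genes. The mean of 10 such genes, led by Acta2, Actg2 and Cnn1, was 10.10 to 11.03 in untreated WT, 12.34 to 12.61 in untreated KO, 11.00 to 11.56 in DSS-treated WT and 11.46 to 13.38 in DSS-treated KO. The median difference of the list between KO and WT was 1.92 without DSS, where all 10 had an unadjusted p under 0.05 and 1 was called, and 1.07 with DSS, where 4 had such a p and none was called. The fibroblast list, described with Smpd3, had 8 of 9 genes at an unadjusted p under 0.05 between the untreated genotypes, and 3 called. The colon epithelium list had 0 of 14 such genes, and the endothelial list had 5 of 8, with 1 called. Over the 8 arrays the correlation with the smooth muscle mean was r = 0.53 for Sgms1 and -0.25 for Samd8. The part of these cells in the genotype differences of Sgms1 and Samd8 was not tested.

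**Figure D2:**
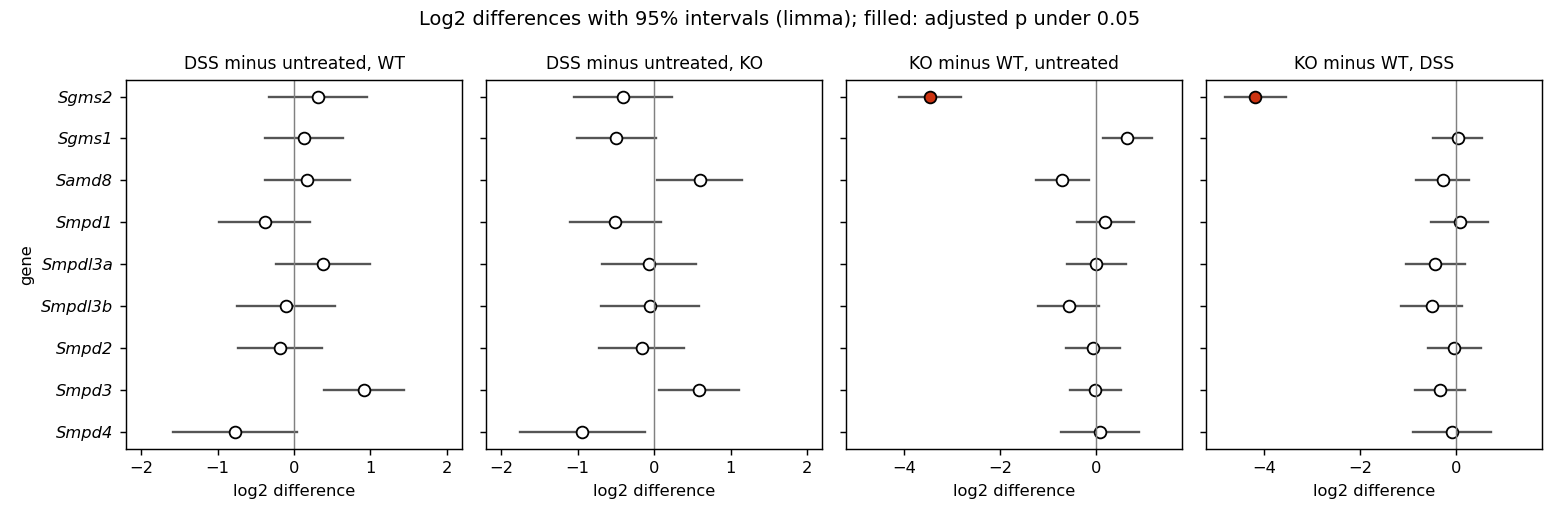
Log2 differences (horizontal axis) of the 9 enzyme genes (vertical axis) in the 4 pairwise comparisons, with 95% intervals from limma; filled points passed an adjusted p of 0.05. Only Sgms2 is filled, at -3.46 and -4.18 between genotypes, and the intervals of the other genes are within 1.8 of 0 in each panel.

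Smpd3, the gene of neutral sphingomyelinase 2, was the hydrolase gene that rose with DSS. In WT its signals (row TC0800002856.mm.2) were 10.49 and 10.36 untreated and 11.58 and 11.09 with DSS. In KO they were 10.40 and 10.42 untreated and 11.03 and 10.96 with DSS. The 4 DSS arrays all lay above the 4 untreated arrays, while the untreated genotypes lay within 0.13 of each other. Averaged over genotypes the rise was 0.75 ± 0.17, a 1.68-fold higher signal (adjusted p = 0.0245). It was the 1 enzyme gene of 9 called in this comparison, in which 5.52% of all genes were called.

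Within each genotype the Smpd3 change was not called. It was 0.91 ± 0.24 in WT (unadjusted p = 0.00274, adjusted p = 0.0627) and 0.58 ± 0.24 in KO (unadjusted p = 0.0326, adjusted p = 0.451). The test of the difference between the DSS changes gave -0.33 ± 0.34 (adjusted p = 0.994), with an interval from -1.07 to 0.41. With DSS both KO arrays lay below both WT arrays, by 0.06 between the nearest pair, less than the 0.49 between the WT replicates, and the difference was -0.34 ± 0.24 (adjusted p = 0.649). The averaged call did not hold in most fits with 1 array left out. Such fits leave 1 array in a group and fewer arrays to estimate the spread. It was lost without WT untreated replicate 1 (adjusted p = 0.079) or 2 (adjusted p = 0.101), without KO untreated replicate 1 (adjusted p = 0.0929) or 2 (adjusted p = 0.0983), and without WT DSS replicate 1 (adjusted p = 0.0648) or KO DSS replicate 1 (adjusted p = 0.0502). The size stayed between 0.62 and 0.87. Without both arrays that held pancreas transcripts it was 0.60 (adjusted p = 0.0632).

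Smpd4, another neutral sphingomyelinase gene, had lower signals on the DSS arrays without a call. They were 11.00 and 10.96 in untreated WT, 10.11 and 10.29 in DSS-treated WT, 11.22 and 10.90 in untreated KO, and 9.42 and 10.82 in KO with DSS. The 4 DSS arrays all lay below the 4 untreated arrays. In KO with DSS the highest was only 0.08 below the lowest untreated array. Averaged over genotypes the difference was -0.86 ± 0.26 (unadjusted p = 0.00727, adjusted p = 0.0906), and it was -0.78 ± 0.37 in WT (adjusted p = 0.354) and -0.94 ± 0.37 in KO (adjusted p = 0.42). The gap of 1.40 between the KO DSS replicates exceeded that of 98.3% of genes in this group. Without KO DSS replicate 2 the averaged difference was -1.21 and passed (adjusted p = 0.00198), as did the KO difference of -1.64 (adjusted p = 0.0144). Without KO DSS replicate 1 these were -0.51 (adjusted p = 0.158) and -0.24. Of the 9 genes, 2 had averaged DSS and untreated groups that did not overlap, Smpd3 and Smpd4, beside 10.4% of all genes.

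**Figure D3:**
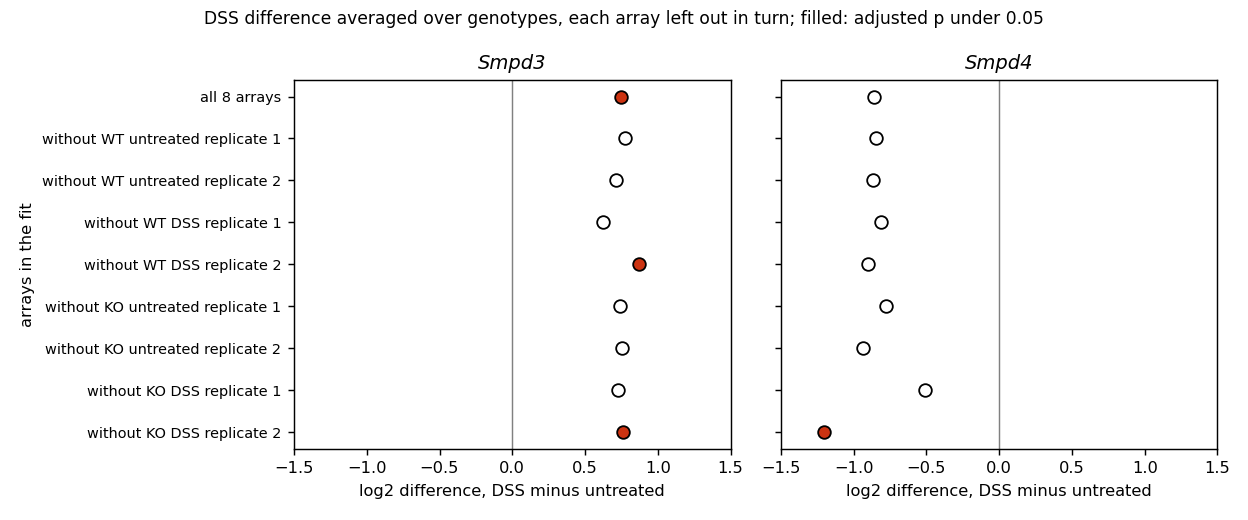
DSS minus untreated log2 difference averaged over genotypes (horizontal axis) for Smpd3 and Smpd4, from all 8 arrays and with each array left out in turn (vertical axis); filled points have an adjusted p under 0.05. The Smpd3 values stay between 0.62 and 0.87 while most of the calls are lost, and the Smpd4 values run from -1.21 to -0.51.

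Markers of other cell types moved with DSS beside Smpd3 and Smpd4. The mean of 9 fibroblast genes, led by Dcn, Sparc and Vim, was 8.32 to 8.67 in untreated WT, 9.83 to 10.23 in untreated KO, 11.40 to 11.96 in WT with DSS and 11.37 to 12.19 in KO with DSS. The mean of 9 macrophage genes was 5.88 to 5.91, 6.29 to 6.61, 7.44 to 7.67 and 7.49 to 8.08 in the same order, with 3 or 4 of the 9 above background on each untreated array and 7 on each DSS array. The mean of 8 endothelial genes was 6.25 to 6.38, 7.09 to 7.45, 7.95 to 8.17 and 8.19 to 8.57. The mean of 15 small intestine genes was lower with DSS, at 8.86 to 9.03, 9.10 to 9.19, 8.14 to 8.24 and 8.11 to 8.18, but its genes did not move as one. Averaged over genotypes, 6 of the 12 tested fell and 1 rose, and Mgam was higher on KO DSS replicate 1, at 13.41, than on any untreated array. The T cell mean ran from 5.38 to 6.59 over the 8 arrays, and that of B and plasma cells from 5.76 to 7.11. The enteric glia and neuron mean ran from 5.63 to 6.43. In WT the T cell mean was 5.38 to 5.70 untreated and 6.12 to 6.59 with DSS. There 1 of 5 tested T cell genes was called higher with DSS, and in KO none was. Of the B and plasma cell list, 1 of 5 genes was above background on each array. Jchain, the 1 gene tested, was called higher with DSS, by 2.75 in WT and 2.81 in KO. Over the 8 arrays the correlation of Smpd3 was r = 0.77 with the fibroblast mean, 0.80 with the macrophage mean and -0.88 with the small intestine mean. That of Smpd4 was -0.74, -0.80 and 0.75. With the endothelial and T cell means r was 0.74 and 0.69 for Smpd3, and -0.71 and -0.60 for Smpd4. The points come from 4 groups, so these correlations hold mostly the DSS contrast again. With the pancreas mean r was 0.80 for Smpd3 and -0.52 for Smpd4. The highest pancreas mean and the highest Smpd3 signal, 11.58, were both on WT DSS replicate 1. The untreated genotypes differed by over 1 in their fibroblast mean, and their Smpd3 signals lay between 10.36 and 10.49. No untreated fibroblast mean was over 10.23 and no DSS one under 11.37. Untreated arrays thus cannot show how Smpd3 goes with fibroblast means as high as those with DSS. The part of these cells in the Smpd3 and Smpd4 differences was not tested, and in such bulk RNA fewer cells of a type and less RNA per cell cannot be told apart.

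**Figure D4:**
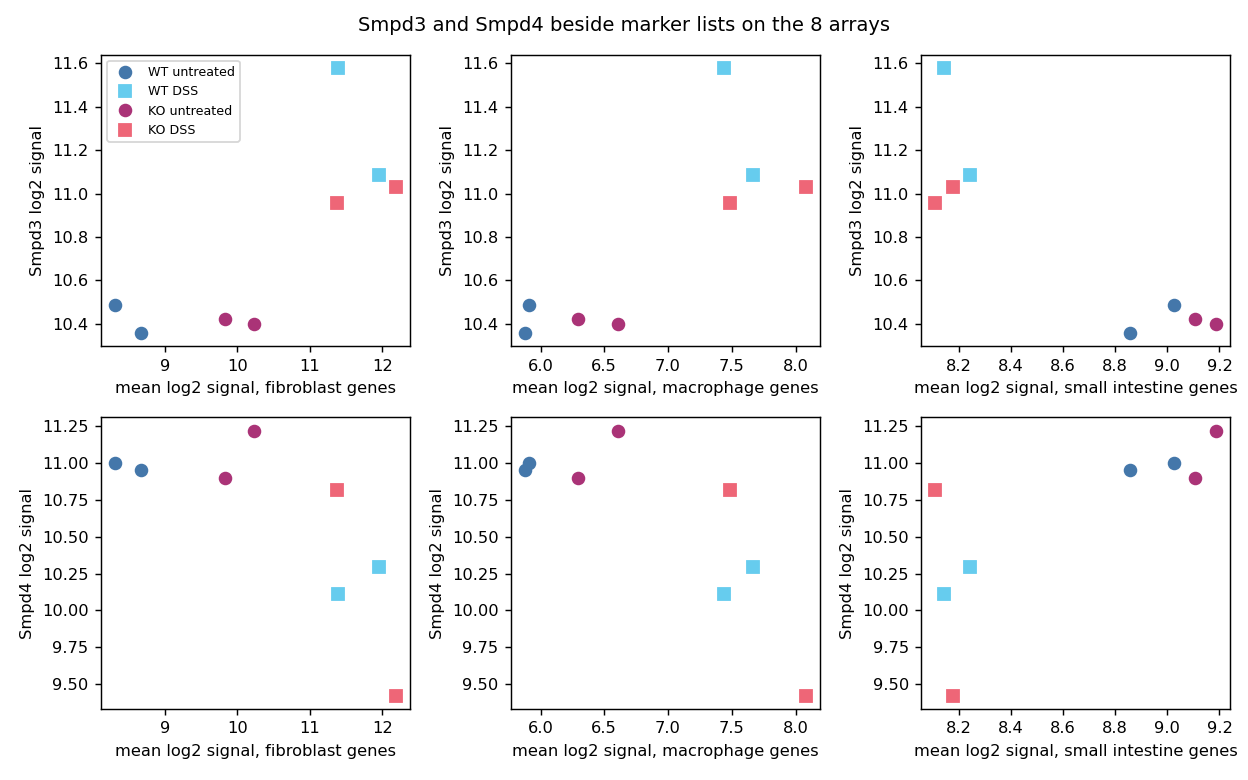
Log2 signal of Smpd3 (top) and Smpd4 (bottom) on the vertical axes against the mean log2 signal of the fibroblast, macrophage and small intestine gene lists on the horizontal axes; each point is an array, circles untreated and squares DSS. On untreated arrays fibroblast means run from 8.32 to 10.23 and Smpd3 from 10.36 to 10.49. On DSS arrays fibroblast means run from 11.37 to 12.19 and Smpd3 from 10.96 to 11.58.

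Smpd2, the remaining neutral sphingomyelinase gene, varied least of the 9, with a standard deviation of 0.20 over the 8 arrays. Its signals were 9.79 and 9.65 in untreated WT, 9.85 and 9.23 in DSS-treated WT, 9.68 and 9.64 in untreated KO, and 9.45 and 9.55 in KO with DSS. The highest and the lowest values were both in WT with DSS. Averaged over genotypes the DSS difference was -0.17 ± 0.18 (adjusted p = 0.697), with an interval from -0.56 to 0.22.

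Among the acid sphingomyelinase family, Smpd1 had lower mean signals with DSS in both genotypes. Its values were 9.16 and 8.66 in untreated WT, 8.47 and 8.59 in DSS-treated WT, 9.02 and 9.19 in untreated KO, and 8.31 and 8.90 in KO with DSS. The groups did not overlap within a genotype, and the averaged difference was -0.44 ± 0.19 (unadjusted p = 0.0405, adjusted p = 0.256). The gap between untreated and DSS in WT, 0.07 at the nearest arrays, was smaller than the 0.51 between the untreated replicates. Between genotypes the difference was 0.20 ± 0.27 without DSS and 0.07 ± 0.27 with DSS, neither called.

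Smpdl3a, which encodes a phosphodiesterase related to the acid enzyme, gave bright signals on each array. They were 14.17 and 14.17 in untreated WT, 14.41 and 14.68 in DSS-treated WT, 14.24 and 14.12 in untreated KO, and 13.70 and 14.52 in KO with DSS. In WT both DSS arrays were above both untreated ones, by 0.37 ± 0.28 (adjusted p = 0.612). In KO the DSS arrays lay on either side of the untreated arrays, with a difference of -0.07 ± 0.28 (adjusted p = 0.979).

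Smpdl3b, the other relative, lay close to background. Its signals were 7.14 and 6.74 in untreated WT, 7.11 and 6.56 in DSS-treated WT, 6.10 and 6.65 in untreated KO, and 6.14 and 6.51 in KO with DSS. Of the 8 arrays 6 were above background, and the exceptions were replicate 1 of both KO groups. Averaged over treatments the KO difference was -0.54 ± 0.21 (unadjusted p = 0.0237, adjusted p = 0.345). The pairwise values were -0.57 ± 0.29 without DSS and -0.51 ± 0.29 with DSS, and the arrays did not overlap in either.

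Taking the 9 genes as a list, few calls were made. With DSS in WT none was called by limma against 4.04% of all genes, 1 had an unadjusted p under 0.05 against 15.4%, and 6 had groups that did not overlap against 44.4%. With DSS in KO none was called against 0.931%, 3 had an unadjusted p under 0.05 against 9.52%, and 6 did not overlap against 38.7%. Between untreated genotypes 3 had an unadjusted p under 0.05 (Sgms2, Sgms1 and Samd8) against 6.32%, and 4 did not overlap against 38.2%. Between the genotypes with DSS 1 did (Sgms2) against 10.2%, and 3 did not overlap against 34.9%. Averaged over genotypes, 3 genes (Smpd3, Smpd4 and Smpd1) had an unadjusted p under 0.05 for DSS against 17.6%. Averaged over treatments 1 gene, Sgms2, was called and did not overlap, against 0.677% and 4.78%, and 3 (Sgms2, Samd8 and Smpdl3b) had an unadjusted p under 0.05, against 11% of all genes. No interaction was called against 0.0769%, and none had an unadjusted p under 0.05 against 5.45%. The median difference of the 9 was 0.13 for DSS in WT, -0.16 for DSS in KO, -0.01 between untreated genotypes and -0.28 between genotypes with DSS, beside medians over all genes of -0.05, -0.04, -0.03 and -0.02.

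The 9 genes did not share 1 pattern. Over the 36 pairs the correlation across the 8 arrays ran from -0.83, for Sgms1 and Samd8, to 0.85, for Smpd1 and Smpd4. Around the group means these 2 pairs had r = -0.40 and 0.70. The genes named next were picked for the highest r among 13003 genes over 8 arrays. High values were thus built in by the choice, and shared function was not tested. Of the 13003 genes, the 5 most like Sgms2 over the arrays were Glt1d1 (r = 0.98), Hsdl2 (0.97), Fbxo42 (0.97), Xrcc3 (0.95) and Slc30a4 (0.94), each higher on each WT array than on each KO array. Glt1d1 ran from 7.56 to 8.16 in WT and from 5.19 to 5.69 in KO, where it was under background. The 3 most like Smpd3 were Bdkrb2 (r = 0.98), Lifr (0.98) and Lrp5 (0.97), of which Bdkrb2 stayed at or under 6.00, above background on 1 array. Those most like Smpd4 were Sdha (0.98), Gps2 (0.98) and Top3b (0.97). Vmn1r169, Rab3b and Eif1b were nearest to Sgms1 (0.96 to 0.97), and Prss50, Heca and Cerk, the last of which encodes ceramide kinase, were nearest to Samd8 (0.95 to 0.97). Prss50, at most 5.62, was under background on all 8 arrays, and Vmn1r169, at 5.70 to 6.28, was above it on 1. For Smpd1 they were Lrsam1, Fitm2 (above background on 2 arrays) and Med31 (0.96 to 0.97), and for Smpd2 Trappc6a, Atp6v0d1 and Pcca (0.98 to 0.99). For Smpdl3a they were Slc35a3, Ybx2 and Odr4 (0.97 to 0.99), and for Smpdl3b Xpnpep1, Mthfd1l and Dot1l (0.96 to 0.97).

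Other genes of sphingolipid metabolism were taken from a list of 59, of which 47 were tested. In WT with DSS 1 rose and 2 fell, in KO with DSS 1 fell, and averaged over genotypes 1 rose and 5 fell, beside the shares of all genes given above. Gm2a, the activator protein of ganglioside breakdown, rose by 1.48 ± 0.22 in WT (adjusted p = 0.00265) and 1.11 ± 0.15 averaged (adjusted p = 0.00131), from 11.13 to 11.62 on untreated arrays to 12.27 to 12.73 with DSS. Neu1, the lysosomal sialidase gene, fell by 1.26 ± 0.17 averaged (adjusted p = 0.00121) and fell by 1.58 ± 0.25 in KO (adjusted p = 0.0147, lost without KO untreated replicate 1 or 2 or KO DSS replicate 1, at adjusted p = 0.0608, 0.163 and 0.0825). Ugt8a, which makes galactosylceramide, fell to background on the 4 DSS arrays, so its size is a lower bound, from the mean signal of the untreated arrays against the mean background of the DSS arrays. It was at least 1.95-fold lower averaged (adjusted p = 0.00347) and at least 2.13-fold lower in WT (adjusted p = 0.0225, between 0.0662 and 0.186 without any 1 of the 4 WT arrays). Fa2h, the fatty acid 2-hydroxylase gene, fell by 1.06 ± 0.20 averaged (adjusted p = 0.00827).

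Ceramide synthase Cers2 and the desaturase and hydroxylase gene Degs2 fell by 0.77 ± 0.16 (adjusted p = 0.0171) and fell by 0.78 ± 0.18 (adjusted p = 0.0292), respectively, averaged over genotypes. The Cers2 call was lost without WT untreated replicate 1 or 2 or KO untreated replicate 2 (adjusted p = 0.0811, 0.0582 and 0.106). The Degs2 call was lost without any 1 of the 4 untreated arrays, WT DSS replicate 2 or KO DSS replicate 1 (adjusted p = 0.0669 to 0.135). The alkaline ceramidase gene Acer1 fell by 1.26 ± 0.31 in WT (adjusted p = 0.0475), and this call was lost without any 1 of the 4 WT arrays or of the 2 untreated KO arrays (adjusted p = 0.0718 to 0.298).

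Between genotypes none of the 47 was called in either treatment by limma, with 3 at an unadjusted p under 0.05 without DSS and 4 with DSS, beside 6.32% and 10.2% of all genes. Averaged over treatments 2 of the 5 tested ceramidase genes were called lower in KO, where 0.677% of all genes were called. The median difference of the 5 was -0.0024. Asah1, the lysosomal acid ceramidase gene, ran from 13.50 to 14.19 in KO and from 14.60 to 15.07 in WT, a difference of -1.25 ± 0.19 (adjusted p = 0.0157). The call was lost without WT untreated replicate 2 (adjusted p = 0.0801) or KO untreated replicate 2 (adjusted p = 0.0568). Asah2, the neutral ceramidase gene, ran from 7.61 to 7.99 in KO and from 8.67 to 9.08 in WT, a difference of -1.10 ± 0.18 (adjusted p = 0.0171). Its call was lost without WT untreated replicate 1 or 2, WT DSS replicate 2 or KO untreated replicate 2 (adjusted p = 0.0531 to 0.112). Averaged over treatments the 10 smooth muscle genes had a median difference of 1.58, all 10 with an unadjusted p under 0.05 and 1 called. Such a p was also reached by 8 of 9 fibroblast genes (1 called) and 5 of 8 endothelial genes (1 called). It was reached by 4 of 8 macrophage and 4 of 5 enteric glia and neuron genes, and by 0 of 14 colon epithelium and 0 of 8 pancreas genes. The part of other cell types in the ceramidase differences was not tested. None of 8 tested genes of ceramide transfer and sensing, of 8 tested sphingosine-1-phosphate genes and of 12 tested genes of phosphatidylcholine and diacylglycerol metabolism was called in any of the 7 comparisons. At an unadjusted p under 0.05 the most in any comparison were 1 of the 8 transfer genes, for DSS in WT and averaged (15.4% and 17.6% of all genes), 3 of the 8 sphingosine-1-phosphate genes, for DSS averaged (17.6%), and 2 of the 12 others, for genotype averaged (11%).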

How the data were processed

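The authors deposited 1 table of log2 signals, made with Affymetrix Expression Console per the submitters' processing notes. No source used here gives the normalization, background correction or genome build. The deposited log2 values were used without further scaling. Of 28846 rows, 6640 control rows were left out. Rows were named from the platform annotation, 19572 with 1 symbol and none with several. The row of highest mean was kept for the 55 genes with several rows. The lowest 33.3% of 19505 genes by mean were left out, below 5.15.

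The means of the 4 groups were fitted to the 8 arrays with limma 3.58.1 (R 4.3.3; residual df 4, prior df 7.27). It gave 7 two-sided comparisons: 4 pairwise, the interaction and 2 averages, with Benjamini-Hochberg adjustment over 13003 genes. No exact permutation test is given, since 2 arrays against 2 allow no p under 0.333. The number of arrays limits the precision. The fit was also run on simulated data with independent normal noise and the fitted variances. These held no outlying array, pancreas transcripts or sex difference, so that run cannot show how the fit copes with them.

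The 10 enzyme genes, the other sphingolipid lists and the marker lists were chosen with earlier results of these data known. All enzyme genes were named, with up to 4 genes per sphingolipid list and comparison past the threshold, by smallest p, the 5 genes most like Sgms2, the 3 most like each other member, by Pearson's r, and up to 3 marker genes per list by mean. Alternatives covered the filter, the rows, the scaling, the variance model, array weights, a replicate block, the arrays in the fit and the threshold. Protein sequences were not used here.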

Additional observations from a re-analysis of the deposited data

How the results depend on the processing

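The differences of Sgms2 between genotypes passed under all 20 alternatives run, from -3.52 to -3.42 without DSS and from -4.62 to -3.74 with DSS. Over 63 gene and comparison values of the 9 genes and 1233 alternative values, no called difference changed sign, 7 lost a call (Smpd3 averaged over genotypes) and 4 gained one. Among the 9 genes, the number called for DSS in WT went from 0 to 1 (Smpd3) at an adjusted p under 0.1. That for DSS in KO ran from 0 to 1 with single arrays left out. That for the average went from 1 to a range of 0 to 2 with single arrays left out, to 0 without WT DSS replicate 1 and KO DSS replicate 1, and to 2 (with Smpd4) at an adjusted p under 0.1. Setting the array medians equal shifted the median of all genes by at most 0.08.

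Whether the replicate numbers pair the samples is not known, and the main fit did not use them. Deviations from the group means correlated from -0.25 to 0.28 between groups, which cannot decide it. With the replicate number as a block, 1 of the 9 genes was called for the DSS average, as without it (Smpd3, adjusted p = 0.0326). Among the other sphingolipid genes the block ended the call of Acer1 in WT (adjusted p = 0.0546), as did testing without the filter (0.0543) or on all rows (0.0592), and the fit on 4 arrays ended that of Neu1 in KO (0.0914). The alternatives for these other sphingolipid genes were chosen after seeing the data.

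Counts over all genes moved more. With single arrays left out they ran from 215 to 716 for DSS in WT (525 with all arrays), 18 to 297 for DSS in KO (121), 3 to 132 between untreated genotypes (51), 24 to 215 between genotypes with DSS (46), 5 to 26 for the interaction (10), 396 to 1054 for the DSS average (718) and 28 to 362 for the genotype average (88). Without both pancreas-bearing arrays the DSS groups had no replicates, so all the spread came from the untreated arrays. Counts from that fit are therefore not set against the others. A fit on the 4 arrays compared gave 14 for DSS in KO and 252 between untreated genotypes. Array weights gave 241 between untreated genotypes and 21 between genotypes with DSS, where trend and robust moderation gave 70. Quantile normalization gave 74 for DSS in KO and 28 between untreated genotypes. At an adjusted p under 0.1 the counts were 799, 190, 78, 76, 16, 1087 and 195 in the order first given. The causes were not tested. Smpdl3b was under background on 2 of the 8 arrays, which limits what its differences show.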
